A study of Mus musculus with 20 samples.

Results

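The interleukin receptors on the mouse inflammation panel were examined in ileal mucosa. They were chosen by name: every assay whose symbol reads Il, digits and r, together with Il6st, and without Il1rn, Il8rb and Il13ra2, 3 symbols that fit the pattern but were set aside. The rule used no measured value. It found 30 assays for 28 genes, of 648 assays for 584 gene symbols on the panel, and Il13ra1 and Il28ra were each measured by 2 assays. The TaqMan OpenArray panel is a real-time PCR plate with a primer and probe set for each gene, read as a cycle threshold (Ct), the cycle at which the fluorescence of the probe crosses a threshold. A lower Ct means more template.

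The 20 samples of ileal mucosa fell into 4 groups of 5. Healthy mice had PBS (phosphate-buffered saline) by the intrarectal and by the oral route. DNBS mice had DNBS, a hapten that provokes intestinal inflammation, by the intrarectal route and PBS by mouth. CEC mice had intrarectal DNBS and oral CEC, an abbreviation that the labels do not spell out, and Nissle mice had intrarectal DNBS and oral Nissle, the name of a probiotic Escherichia coli strain. All groups but the healthy one thus shared intrarectal DNBS, and the labels used here give no mouse strain, age, dose or time. For Nissle 3, 4 and 5, 1 label names the healthy controls while all others name the Nissle group, and they were kept as Nissle. The series text speaks of RNA pooled from mice, and nothing says that the samples are separate animals, so a p-value here measures no more than how these samples vary, and that variation may be technical.

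An interleukin receptor is an assembly of chains. As a rule a chain that binds 1 or a few ligands pairs with a chain shared by several receptors, and the shared chain and its partner pass the signal on. The shared chains are the common gamma chain (Il2rg), gp130 (Il6st), the beta chain of the interleukin-10 and interleukin-22 receptors (Il10rb), the IL-12 receptor beta 1 chain that IL-23 also uses (Il12rb1) and the accessory protein of the IL-1 family (Il1rap). Most of these receptors signal through JAK kinases and STAT factors, whereas the IL-1 family and IL-17 receptors use the adaptors MyD88 and Act1. In the gut, IL-22 made by lymphoid cells reaches the epithelium through Il22ra1 and Il10rb and drives antimicrobial and repair genes. The product of Il22ra2 is a soluble protein that binds IL-22 and keeps it from its receptor.

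Levels are given as relative levels: the mean Ct of 544 assays measured in every sample, minus the Ct of the assay, so that 0 is the mean of the panel in that sample and a difference of 1 stands for a doubling if each cycle doubles the product. Of 648 assays, 570 to 594 gave a Ct in each sample, and the mean Ct of the samples lay between 22.6 and 24.3. As a check of the label of ileal mucosa, the epithelial markers on the panel (Apoa1, Ccl25 and Reg3g, 3 of 9 genes listed for the epithelium) were among its strongest signals, with a mean relative level between 6.81 and 8.81 in every sample. In bulk mucosa, fewer cells of a type and less RNA per cell cannot be told apart.

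Of the 30 receptor assays, 27 gave a Ct in all 20 samples, 2 in some of them and 1, Il1rapl2, in none. Il1rapl2 codes for an IL-1 receptor accessory-like protein known from the nervous system. Il5ra, the eosinophil chain of the IL-5 receptor, was detected in 11 samples: 2 healthy, 3 DNBS, 3 CEC and 3 Nissle, at a Ct of 28.3 to 29.9. Il31ra, which pairs with the oncostatin M receptor to bind IL-31, was detected in 14 samples at a Ct of 28.9 to 31.4, with the latest median of all the receptors (30.3). Its detection differed in count between the groups: 1 of 5 healthy samples (healthy 4, relative level -8.03), 3 of 5 DNBS samples (-8.01, -7.06 and -8.09 in DNBS 1, 2 and 4), and all 5 CEC samples (-7.77, -7.57, -6.89, -5.80 and -7.26) and all 5 Nissle samples (-8.31, -7.28, -5.67, -5.38 and -6.85).

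For Il31ra, the 5 of 5 against 1 of 5 that separated CEC, and equally Nissle, from the same healthy samples had an unadjusted p of 0.0476 by a two-sided Fisher's exact test, and an adjusted p of 1 over the 63 assays whose detection varied. No receptor was called in detection in any of the 6 comparisons, and none but Il31ra in those 2 had an unadjusted p under 0.05. With 5 samples a group, an assay standing alone cannot reach a p small enough to pass this adjustment, so the lack of a call says little. Over all assays whose detection varied, 0.00% were called in each comparison. Those at an unadjusted p under 0.05 came to 3.17% for CEC against healthy, 4.76% for Nissle against healthy, 2.99% for DNBS against healthy, 1.72% for CEC against DNBS, 3.45% for Nissle against DNBS and 1.67% for CEC against Nissle.

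The IL-1 family gave 6 assays, 5 of them detected throughout, with median Ct values of 23.6 to 26.5. Il1r1, the signalling receptor for IL-1, was the strongest of them, at a relative level of -0.09 ± 0.46 in healthy samples (SD, n = 5). Il1rl1, known as ST2, the receptor for the alarmin IL-33 on mast cells, type 2 lymphoid cells and regulatory T cells, followed at -0.53 ± 0.44, and then Il1rap at -1.55 ± 0.46. Il18rap, the accessory chain of the IL-18 receptor of T and NK cells, and Il1rl2, the receptor for the epithelial IL-36 cytokines, were lower, at -2.93 ± 0.71 and -3.33 ± 1.03. Levels of different genes were read with different primers of unmeasured efficiency, so this order and those that follow are orders of Ct and not of transcript number.

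The common gamma chain receptors gave 6 assays for 5 genes, all detected throughout. Il13ra1 was counted with them as a partner of Il4ra, but its receptor with Il4ra does not use the common gamma chain. Il13ra1, which pairs with Il4ra to bind IL-4 and IL-13, had median Ct values of 19.5 and 19.6 by its 2 assays, among the earliest of all receptors, at 4.02 ± 0.15 and 4.01 ± 0.21 in healthy samples. Il4ra itself stood at a median Ct of 20.6 and Il2rg, the shared chain, at 21.9. Il4ra was also the steadiest member, with a pooled SD within groups of 0.262. Il15ra, which presents IL-15 to intraepithelial and NK cells, and Il7r, a survival receptor of T and innate lymphoid cells, lay lower, at healthy levels of -0.24 ± 0.21 and -1.59 ± 0.51. Of the receptors that signal through the beta common chain, Il3ra stood at -1.38 ± 0.73, and the other is Il5ra.

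The gp130 and IL-12/23 receptors gave 7 assays, 6 of them detected throughout. Il6st, the shared gp130 chain, was the strongest at a median Ct of 21.2, well ahead of its IL-6 binding partner Il6ra at 25.5. The healthy levels of the remaining members fell from -1.71 ± 0.65 for Il27ra through -2.61 ± 0.83 for Il12rb2 and -2.80 ± 0.64 for Il12rb1 to -4.60 ± 0.36 for Il23r, the IL-23 receptor of type 17 lymphocytes, whose median Ct of 28.1 was the latest among receptors detected throughout. Il12rb2 is the chain specific to the IL-12 receptor of type 1 lymphocytes. The ranges of mean ± SD of neighbours in this order overlapped, apart from those of Il12rb1 and Il23r.

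Among the class II receptors, 6 assays for 5 genes, Il10rb (median Ct 19.6) and Il22ra1 (21.6), which together form the IL-22 receptor of epithelial cells, had the earliest Ct values. Il10ra, the chain that leukocytes need to respond to IL-10, was at a median Ct of 24.9, and the secreted Il22ra2 at 25.3. Il28ra, now named Ifnlr1, the epithelial receptor for interferon lambda, had median Ct values of 23.9 and 24.2 by its 2 assays. Of the IL-17 receptors, Il17ra, shared by several IL-17 cytokines, was at 22.2 and Il17rb, which binds IL-25, at 26.1. Il8ra, now named Cxcr1, is a chemokine receptor for neutrophil attractants that the naming rule takes in, and its median Ct was 25.8.

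**Figure D1:**
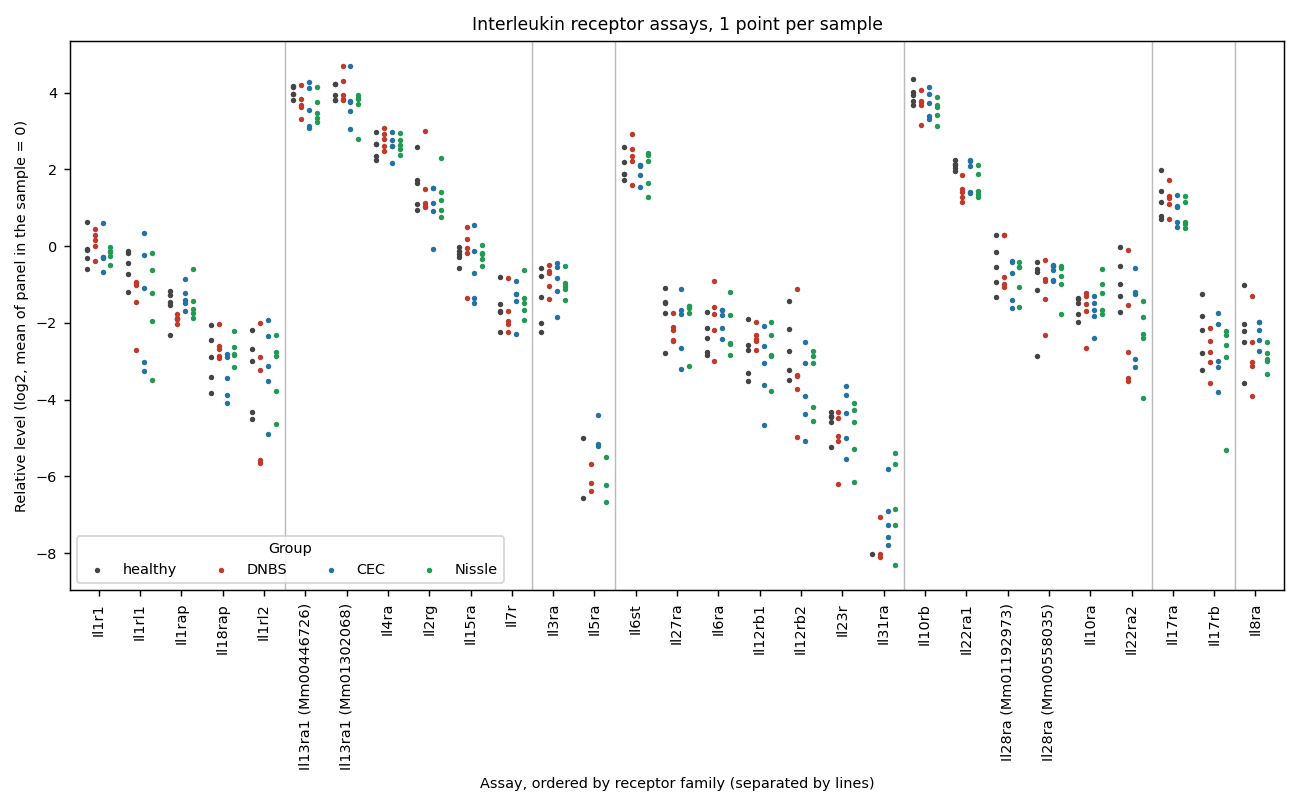
Relative level (log2, mean of the panel in the sample at 0) of the 29 receptor assays with any value, 1 point per sample, coloured by group and ordered by receptor family with grey lines between families. Il13ra1 and Il10rb lie highest and Il31ra lowest, and the 4 groups overlap in nearly every assay.

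The spread between samples of a group differed from assay to assay. The pooled SD within groups had a median of 0.571 over the 27 receptor assays and 0.650 over the 544 assays of the panel measured throughout, and was widest for Il1rl2 at 1.22, Il1rl1 at 1.12, Il22ra2 at 1.10 and Il12rb2 at 1.05. Within single samples, runs of 54 successive rows of the table (12 runs, called sections here; the sources used here do not say what they are) were shifted together relative to the other samples. The widest range of these shifts within a sample was 2.87 cycles in healthy 5, followed by 2.46 in DNBS 5 and 1.72 in DNBS 1, and the narrowest was 0.264 in DNBS 4. Setting each section to the same mean in every sample lowered the pooled SD of 22 of the 27 receptor assays and took their median to 0.420. Il31ra, late in Ct, lies in section 7, which was later by 1.37 cycles in healthy 5 and 0.907 in DNBS 5, both without Il31ra. That section was earlier in all CEC samples (-0.43 to -0.09) and in healthy 4 (-0.50), all with Il31ra. Nissle 4 (0.30, detected) and healthy 3 (-0.38, not detected) went the other way. The part of these shifts in the detection of Il31ra was not tested.

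The 2 assays of Il28ra showed this directly, since they lie in different sections (7 and 9). Their Ct values differed by -0.739 to 3.13 cycles over the 20 samples (first the assay Mm00558035, then Mm01192973), and healthy 5 and DNBS 5 had the widest differences, 3.13 and 2.60. Across samples the difference followed the shift between the sections (r = 0.97, n = 20, a description, since each assay lies in the section whose shift is computed), and its SD fell from 1.05 to 0.311 cycles once sections were centred. Before centring, the relative levels of the 2 assays of this gene deviated from their group means in opposite ways (r = -0.39, n = 20). After centring they deviated the same way (r = 0.61). The 2 Il13ra1 assays, which share section 2, differed by -0.656 to 0.625 cycles with an SD of 0.379, and their deviations had an r of 0.58. Differences are therefore also given with sections centred where that moved the value of a named receptor by over 1.5 times.

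**Figure D2:**
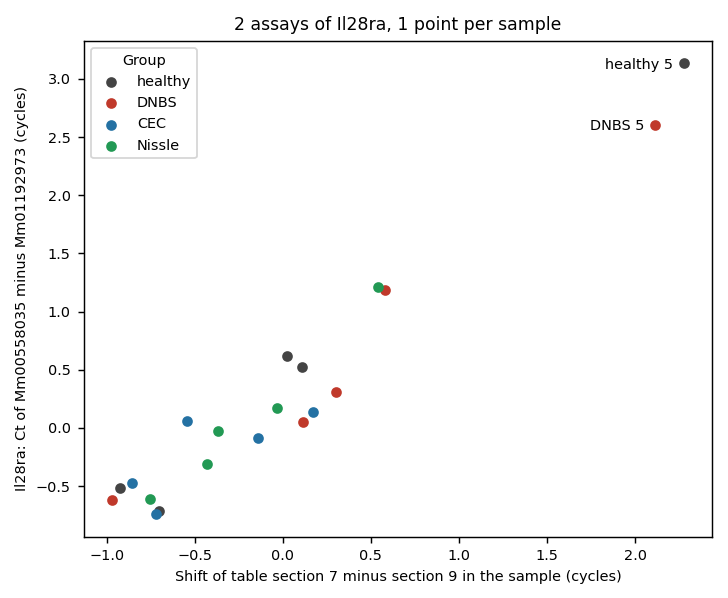
Difference in Ct between the 2 Il28ra assays (cycles, vertical) against the difference in shift between the table sections that hold them (cycles, horizontal), 1 point per sample, coloured by group. Healthy 5 and DNBS 5 stand apart at differences of 3.13 and 2.60 cycles, and the other samples lie between -0.739 and 1.21.

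DNBS against healthy asks what the hapten did to receptor transcripts in the ileum. No receptor passed the test. The limma fit over all 569 assays measured in at least 3 samples of each group, with Benjamini-Hochberg adjustment at 0.05, called 0 of 27 receptor assays, and 0.176% of all assays. At an unadjusted p under 0.05 there were 2 receptors of 27, Il22ra1 and Il22ra2, against 14.6% of all assays. A share from so few receptors is not read as different from that background. The differences ran from -1.36 to 0.53 with a median of -0.09, beside -0.07 for all assays, and 11 were above 0 and 16 below (254 and 315 of all assays). Without any normalization the medians moved to 0.15 for receptors and 0.16 for all assays, so the sign of these medians depends on the scaling and is read only relative to all assays.

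Il22ra1, the epithelial chain of the IL-22 receptor, stood lowest in p. Its relative levels were 2.23, 2.12, 2.15, 1.96 and 2.04 in healthy 1b, 3, 4, 5 and 6, and 1.41, 1.29, 1.50, 1.16 and 1.86 in DNBS 1 to 5. No DNBS sample reached the healthy range, which was narrow. The difference was -0.66 (SE 0.23, 95% interval -1.13 to -0.18), a level 1.58-fold lower in DNBS, with an adjusted p of 0.158 by limma. It ranked 30th by p of 569 assays, and it was the 1 receptor of 27 with every DNBS value below every healthy one, as 2.54% of the assays measured in all 10 samples had. No receptor had every DNBS value above, as 1.81% of those assays had. With sections centred the difference was -0.51 with an adjusted p of 0.132, and DNBS 5, at 1.93, then lay within the healthy range of 1.78 to 2.33. With limma's array weights, which give less weight to samples of wide spread, the difference was -0.73 and was called (adjusted p = 0.0153), as were 90 of all 569 assays. Without normalization it was -0.42 (adjusted p = 0.813).

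Il22ra2, the soluble binding protein of IL-22, had the widest difference. Its levels were -1.72, -1.30, -0.98, -0.02 and -0.52 in healthy 1b, 3, 4, 5 and 6, and -2.76, -3.51, -1.54, -3.44 and -0.10 in DNBS 1 to 5. DNBS 1, 2 and 4 lay below all healthy samples, DNBS 3 within their range, and DNBS 5 near their top. The difference was -1.36 (SE 0.65, 95% interval -2.71 to -0.01), with an adjusted p of 0.331 by limma, and -1.51 with sections centred (adjusted p = 0.132). Il3ra, the alpha chain of the IL-3 receptor of basophils and mast cells, came next and lay on the other side. Its levels were -2.01, -1.33, -0.56, -2.22 and -0.77 in the healthy samples and -0.64, -0.48, -1.03, -0.70 and -1.38 in the DNBS samples, which overlapped, with a difference of 0.53 (SE 0.35, limma, adjusted p = 0.521). Without healthy 5 the difference was 0.32, and with array weights 0.31.

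**Figure D3:**
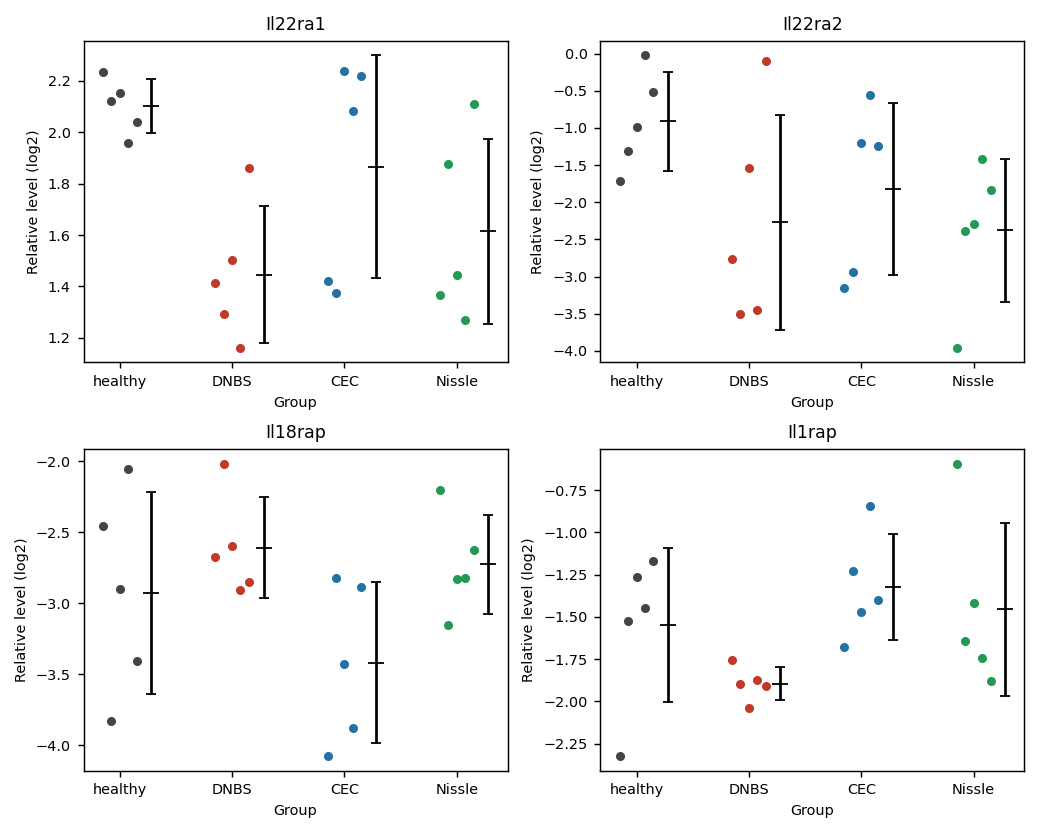
Relative level (log2) of Il22ra1, Il22ra2, Il18rap and Il1rap, 1 point per sample in the 4 groups, with the group mean and SD (n = 5) beside the points. The 5 DNBS samples lie below the 5 healthy samples for Il22ra1 and below the 5 CEC samples for Il1rap, while the groups overlap for Il22ra2 and Il18rap.

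Neutrophil marker levels are set beside both IL-22 receptor genes, since they differed widely between samples of a group. Over 8 assays of 7 neutrophil genes (of 8 listed: S100a8, S100a9, Ltf, Camp, Ncf1, Fpr1 and Il8rb), all detected in every sample, the mean relative level ran from -3.29 to -1.71 in healthy samples, from -2.25 to 0.79 in DNBS, from -2.82 to 0.45 in CEC and from -2.43 to 2.66 in Nissle. The 5 samples with the lowest Il22ra2, Nissle 1 (-3.96), DNBS 2 (-3.51), DNBS 4 (-3.44), CEC 1 (-3.16) and CEC 3 (-2.95), had neutrophil means of 2.66, 0.79, -0.22, 0.02 and 0.45. The same 5 samples, in that order, stood at 1.37, 1.29, 1.16, 1.42 and 1.37 in Il22ra1, but Nissle 3 and 4 were about as low, at 1.45 and 1.27, with neutrophil means of -1.78 and -1.57. DNBS 5, the DNBS sample with the highest level of Il22ra2, had the lowest neutrophil mean of its group, -2.25. Other samples differed from this: DNBS 3 had a neutrophil mean of -0.16 with Il22ra2 within the healthy range (-1.54), and Nissle 2, 3 and 5 had Il22ra2 levels below it (-2.39, -2.29 and -1.84) with neutrophil means of -1.32, -1.78 and -2.43. Against healthy, 8 of 8 neutrophil assays lay above 0 in DNBS (median 2.14), 0 called by limma and 4 at an unadjusted p under 0.05. The 4 epithelial assays had a median of -0.69 in the same comparison, with 1 of 4 above 0, 0 called and 1 at an unadjusted p under 0.05.

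Markers of other cell types differed in the same comparison too, 0 of them called by limma. The endothelial Selp, 1 of 6 genes listed for that type with enough values, stood at 1.59 (SE 0.59, adjusted p = 0.158), with levels of -3.43 to -1.71 in DNBS samples, all above the healthy range of -4.14 to -3.77. It was at 0.31 in Nissle 1 and at -1.71 and -1.66 in CEC 1 and 3, samples of low Il22ra2. But Selp was at -1.72 in Nissle 4 and -2.11 in DNBS 3, samples with Il22ra2 within the healthy range. Scn9a, the 1 nerve and muscle gene measured of 4 listed, stood at -1.75 (SE 0.47, adjusted p = 0.122). The 4 eosinophil and mast cell assays tested ran from -1.70 to 0.42 with a median of -0.48 and 1 of 4 above 0. The lowest was the Mm00515543 assay of Ccr3, the eotaxin receptor, at -1.70 (SE 0.49, limma, adjusted p = 0.122). A second Ccr3 assay, Mm01216172, was also among the 4, and its own difference is not given here. Of the 4, 2 had an unadjusted p under 0.05 (limma), both below 0. The 7 macrophage and dendritic cell assays had a median of 0.31 with 5 of 7 above 0, and 1 of these had an unadjusted p under 0.05 (limma). Among 5 T cell assays the median was -0.14 with 2 of 5 above 0, and 1 on each side of 0 had an unadjusted p under 0.05. Cr2, the 1 B cell gene measured of 5 listed, stood at -0.62 (SE 0.68, limma, adjusted p = 0.722). The part of any cell type in the receptor values was not tested.

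**Figure D4:**
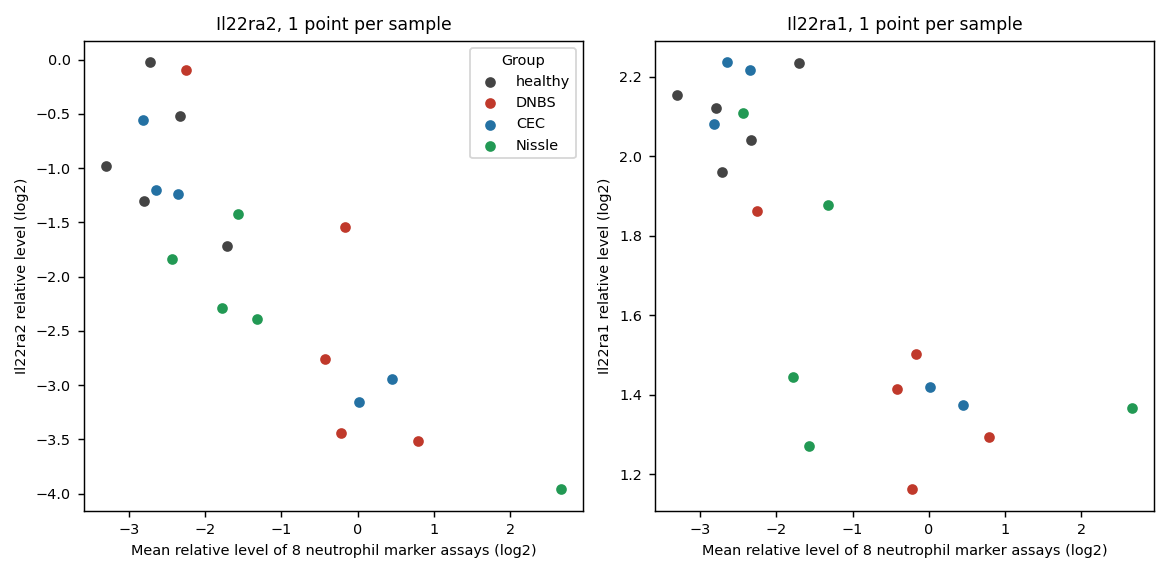
Relative level of Il22ra2 (left) and Il22ra1 (right) against the mean relative level of 8 neutrophil marker assays (both log2), 1 point per sample, coloured by group. Samples with a neutrophil mean above -1 have Il22ra2 levels of -1.54 or less and Il22ra1 levels of 1.50 or less, and DNBS 5 lies among the healthy samples for Il22ra2.

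CEC against healthy, which shares the healthy samples with the comparison above, called no receptor either. The limma fit called 0 of 27 receptors (0.176% of all assays), and 0 had an unadjusted p under 0.05 (3.87% of all assays). Differences ran from -1.17 to 0.45 with a median of -0.24, beside -0.08 for all assays, and 19 of 27 receptors (70.4%) lay below 0, beside 56.1% of all assays. In no receptor were the groups apart, as they were, CEC below, in 0.544% of the assays measured in all 10 samples and, CEC above, in 0.363%. Il12rb2, the IL-12 receptor chain of type 1 T cells, had the smallest p. Its levels were -5.07, -4.38, -3.05, -3.91 and -2.49 in CEC 1, 3, 5, 7 and 8 and -2.73, -3.50, -3.23, -1.43 and -2.16 in the healthy samples, so that CEC 1, 3 and 7 lay below all of these. The difference was -1.17 (SE 0.64, limma, adjusted p = 0.803), and -0.44 with array weights.

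Il13ra1, the partner of Il4ra for IL-4 and IL-13, and Il2rg, the common gamma chain, followed. By the assay Mm00446726, Il13ra1 was at 3.08, 3.13, 4.27, 3.54 and 4.13 in the CEC samples and between 3.82 and 4.18 in the healthy ones, a difference of -0.39 (SE 0.25, limma, adjusted p = 0.803), with CEC 5 above and CEC 1, 3 and 7 below the healthy range. Without CEC 1 the difference was -0.25, and with array weights -0.16. By Mm01302068 it was at 3.52, 3.06, 4.70, 3.79 and 3.77 against 3.81 to 4.24, with CEC 5 again above. Il2rg stood at -0.07, 0.90, 1.51, 1.11 and 1.52 in CEC and 1.64, 0.95, 1.09, 2.59 and 1.73 in healthy samples, a difference of -0.60 (SE 0.41, adjusted p = 0.803). The Il2rg difference was -0.34 without CEC 1, -0.36 without healthy 5, -0.23 with sections centred and -0.14 with array weights. Il22ra1 and Il22ra2 split the CEC group alike: CEC 1 and 3 were low (1.42 and 1.37, and -3.16 and -2.95), and CEC 5, 7 and 8 were at healthy levels (2.24, 2.08 and 2.22, and -1.20, -0.56 and -1.24).

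Nissle against healthy uses the same healthy samples again. The limma fit called 0 of 27 receptors, beside 0.176% of all assays, and 2, Il22ra1 and Il22ra2, had an unadjusted p under 0.05, beside 9.49% of all assays. Differences ran from -1.47 to 0.37 with a median of -0.21 (all assays -0.10), a sign that turns to 0.23 without normalization, where all assays stand at 0.33. Il22ra2 was at -3.96, -2.39, -2.29, -1.42 and -1.84 in Nissle 1 to 5, and 4 of the 5 lay below all healthy samples. In 0 receptors did all 5 lie below, as in 2.52% of the assays measured in all 10 samples, or all 5 above, as in 0.540%. The Il22ra2 difference was -1.47 (SE 0.65, 95% interval -2.82 to -0.12, limma, adjusted p = 0.488), and -2.27 without Nissle 3, 4 and 5 (adjusted p = 0.171).

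For Il22ra1, Nissle 1 to 5 stood at 1.37, 1.88, 1.45, 1.27 and 2.11, and all but Nissle 5 lay below the healthy samples. The difference was -0.49 (SE 0.23, limma, adjusted p = 0.500), but -0.30 with sections centred (adjusted p = 0.443) and -0.05 without normalization (adjusted p = 0.981). Il10rb, the partner of Il22ra1 and also a chain of the IL-10 and interferon lambda receptors, came next by p. It was at 3.12, 3.42, 3.62, 3.69 and 3.89 in Nissle and 4.02, 3.67, 3.80, 4.35 and 3.95 in healthy samples, with a difference of -0.41 (SE 0.22, adjusted p = 0.502). This direction rests on the scaling, since the raw Ct gave a difference of 0.03. The value was -0.21 with quantile normalization, -0.22 with the replicate block, -0.26 with array weights and -0.69 without Nissle 3, 4 and 5.

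CEC against DNBS asks what oral CEC did in mice given DNBS. The limma fit called 0 of 27 receptors, beside 0.00% of all assays, and 1 receptor had an unadjusted p under 0.05, beside 10.7% of all assays. Differences ran from -0.83 to 0.70 with a median of -0.06 (all assays -0.02). Il18rap, the IL-18 receptor accessory chain, was that receptor. Its levels were -4.07, -2.82, -3.42, -3.88 and -2.89 in CEC 1, 3, 5, 7 and 8 and -2.67, -2.02, -2.60, -2.91 and -2.85 in DNBS 1 to 5, so that CEC 1, 5 and 7 lay below all DNBS samples. The difference was -0.81 (SE 0.38, limma, adjusted p = 0.455), and the healthy samples, at -2.46, -3.83, -2.90, -2.06 and -3.41, covered most of the same range.

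Il1rap, the accessory protein that IL-1, IL-33 and IL-36 receptors share, was apart in these groups. It was at -1.68, -1.23, -1.47, -0.84 and -1.40 in the CEC samples and at -1.76, -1.90, -2.04, -1.87 and -1.91 in the DNBS samples, whose SD of 0.10 was narrow. All 5 CEC samples lay above all 5 DNBS samples, as did 1.97% of the assays measured in all 10, but CEC 1 and DNBS 1 lay close to each other and the groups overlapped once sections were centred. In 0 receptors did all CEC samples lie below all DNBS samples, as in 1.25% of those assays. For Il1rap, the difference was 0.57 (SE 0.29, 95% interval -0.04 to 1.18, limma, adjusted p = 0.476). Healthy samples spread on both sides, at -2.32, -1.52, -1.27, -1.45 and -1.17. Il22ra1 was 0.42 higher in mean in CEC than in DNBS (SE 0.23, limma, adjusted p = 0.480) and CEC 5, 7 and 8 lay above all DNBS samples. That value was 0.19 with the replicate block, 0.23 without normalization and 0.66 with array weights (adjusted p = 0.0596). In the same comparison the neutrophil assays had a median of -1.22 (0 of 8 above 0, 0 at an unadjusted p under 0.05). The epithelial assays, 4 for 3 genes, had one of 1.14 (3 of 4 above 0, each at that p). The macrophage and dendritic cell assays had one of 0.68 (4 of 7 above 0, 3 of these at that p). The Mm00515543 assay of Ccr3, 1 of 4 eosinophil and mast cell assays, stood at 1.43 and Scn9a at 1.27, both at that p. The T cell assays (median 0.19), Cr2 (-0.54) and Selp (-0.52) had none at that p. In these lists limma called 0, and the part of any cell type in the receptor values was not tested.

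Nissle against DNBS, over the same DNBS samples, gave 0 of 27 receptors called by limma (0.00% of all assays) and 0 at an unadjusted p under 0.05 (4.22% of all assays). Differences ran from -0.49 to 0.60 with a median of -0.14 (all assays -0.06). In no receptor were the groups apart, as they were, Nissle below, in 0.894% of the assays measured in all 10 samples and, Nissle above, in 0.179%. The smallest p belonged to the Mm01302068 assay of Il13ra1, at 3.83, 3.94, 2.80, 3.71 and 3.87 in Nissle 1 to 5 against 4.70, 3.81, 4.30, 3.85 and 3.93 in DNBS 1 to 5, a difference of -0.49 (SE 0.28, limma, adjusted p = 0.850). Nissle 3 and 4 lay below all DNBS samples, Nissle 3 well apart, and without it the difference was -0.28 (adjusted p = 0.891). The value was -0.24 without Nissle 3, 4 and 5, -0.28 without normalization and -0.31 with quantile normalization. The other assay of the gene read 3.25, 3.76, 3.46, 3.33 and 4.14 against 4.20, 3.84, 3.68, 3.62 and 3.30, and Nissle 3 was not its lowest sample.

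In the same comparison Il1rap was at -0.59, -1.64, -1.42, -1.74 and -1.88 in Nissle, so that 4 of 5 samples lay above all DNBS samples, and the difference was 0.44 (SE 0.29, limma, adjusted p = 0.853). Nissle 1 stood well above the rest, and without it the difference was 0.23. It was 0.29 with quantile normalization and 0.77 without Nissle 3, 4 and 5. Il17ra, the shared chain of the IL-17 receptors, was at 0.63, 0.59, 0.48, 1.14 and 1.31 in Nissle and 1.26, 0.72, 1.31, 1.10 and 1.73 in DNBS. Nissle 1, 2 and 3 lay below the DNBS samples. The difference was -0.40 (SE 0.27, limma, adjusted p = 0.853), and -0.13 with sections centred, -0.19 without normalization, -0.22 when healthy 5, DNBS 5 and DNBS 1 were left out, and -0.63 without Nissle 3, 4 and 5.

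CEC against Nissle compares the oral treatments directly, on samples that the comparisons above also used. The limma fit called 0 of 27 receptors (0.00% of all assays) and 0 had an unadjusted p under 0.05 (1.41% of all assays). Differences ran from -0.69 to 0.65 with a median of 0.04 (all assays 0.06). That sign turned to -0.14 when the reference assays set the scale (all assays -0.12) and to -0.36 without normalization (all assays -0.33). Il18rap was at -2.21, -3.15, -2.83, -2.82 and -2.63 in Nissle 1 to 5, and CEC 1, 5 and 7 lay below all of these, a difference of -0.69 (SE 0.38, limma, adjusted p = 0.998), and -1.09 without normalization or -0.46 with array weights. Il10ra was at -1.30, -1.49, -1.68, -2.39 and -1.82 in CEC and -0.60, -1.22, -1.76, -1.0 and -1.67 in Nissle, which overlapped, a difference of -0.48 (SE 0.32, adjusted p = 0.998). Without CEC 7 it was -0.32, with the replicate block -0.11, without Nissle 3, 4 and 5 -0.82 and without normalization -0.88. Il8ra was at -1.99, -2.45, -1.97, -2.18 and -2.74 in CEC and -3.34, -2.98, -2.79, -2.49 and -2.95 in Nissle, where 4 of the 5 CEC samples lay above all Nissle samples. In 0 receptors were the groups apart, beside 0.358% of assays with CEC above and 0.00% with CEC below, though with sections centred all CEC samples lay above all Nissle samples for Il8ra. The Il8ra difference was 0.65 (SE 0.46, limma, adjusted p = 0.998), and 0.25 without normalization.

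**Figure D5:**
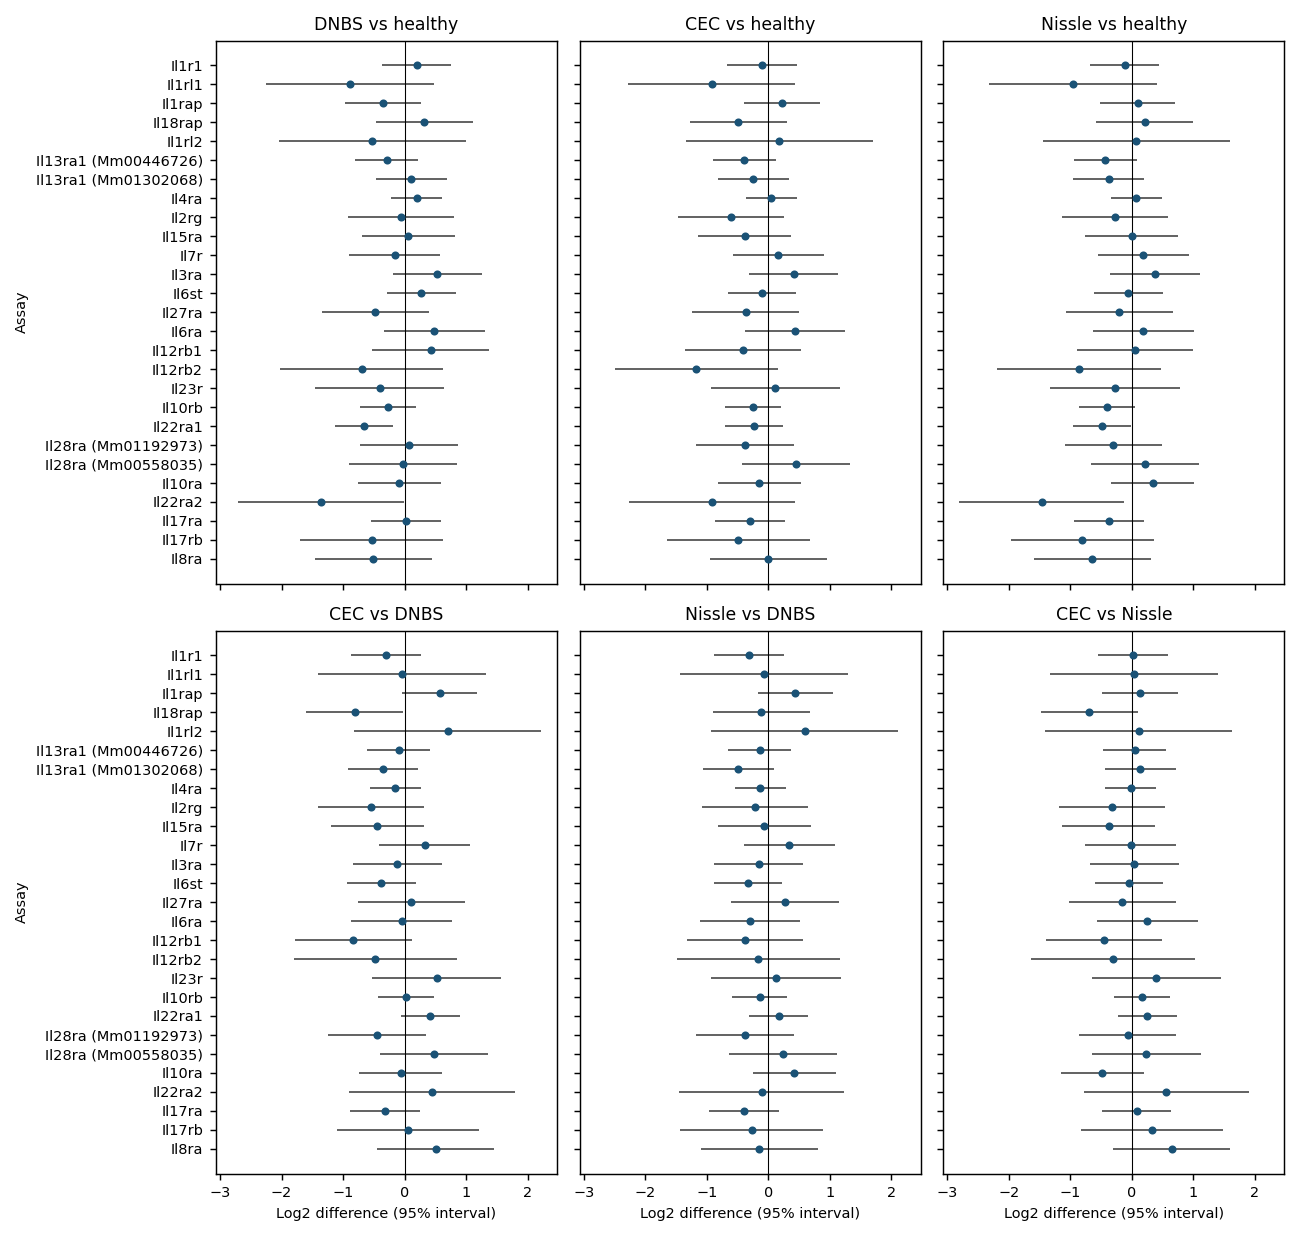
Log2 difference in relative level with its 95% interval for the 27 receptor assays (rows) in the 6 comparisons (panels), from the limma fit over all 20 samples. The point estimates lie between -1.47 and 0.70, and the intervals of Il22ra1 and Il22ra2 lie below 0 for DNBS and Nissle against healthy, as does that of Il18rap for CEC against DNBS.

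A missed threshold does not show equal levels, and the intervals say how much room was left. The median SE of a receptor difference was 0.38. Between 10 and 14 of the 27 receptors, depending on the comparison, had a 95% interval inside -1 to 1 on the log2 scale, a change of less than 2-fold either way, and between 23 and 27 had one inside -2 to 2. The receptors left widest were those of the largest spread. Il1rl1 had means of -0.53 ± 0.44 in healthy, -1.41 ± 0.75 in DNBS, -1.45 ± 1.62 in CEC and -1.49 ± 1.29 in Nissle samples (SD, n = 5), and in CEC it ran from -3.24 in CEC 3 to 0.34 in CEC 8. Il1rl2 had a pooled SD of 1.22, which centring the sections took to 0.637.

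By family, no member of any was called, and the counts that follow describe the direction of the estimates. Both Il13ra1 assays are counted among the common gamma chain receptors. For DNBS against healthy, the class II receptors had 1 of 6 assays above 0 with a median of -0.18, the IL-1 family 2 of 5 with -0.35, the common gamma chain receptors 3 of 6 with -0.00, the gp130 and IL-12/23 receptors 3 of 6 with -0.07 and the IL-17 receptors 1 of 2 with -0.26, beside -0.07 for all assays. Without normalization, where all assays stand at 0.16, the medians were 0.05, -0.12, 0.23, 0.17 and -0.03 in the same order. With sections centred they were -0.19, -0.14, 0.13, -0.05 and -0.28, beside -0.08 for all assays. For CEC against DNBS, the class II receptors had 4 of 6 above 0 with a median of 0.22, and the common gamma chain receptors 1 of 6 with -0.25, beside -0.02 for all assays. With sections centred these medians were 0.10 and -0.27 (all assays 0.02). The class II receptors include both Il28ra assays, at 0.48 and -0.45 in this comparison, or 0.19 and -0.03 with sections centred. For Nissle against DNBS, the values for these 2 families were 3 of 6 with 0.03 and 1 of 6 with -0.13, beside -0.06, and the latter median turned to 0.07 without normalization (all assays 0.14). With sections centred the medians were 0.10 and -0.11 (all assays -0.02).

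The ligands of these receptors were measured on the same panel and spread over a wider range, from -4.06 to 4.62 for DNBS against healthy. Of 39 assays for 31 interleukin genes and related cytokines, 24 were measured often enough to test, and limma called 0 in every comparison. For DNBS against healthy, 17 of 24 lay above 0 with a median of 0.40, and 4 had an unadjusted p under 0.05, all above 0. Il6, the gp130 ligand of acute inflammation, had the smallest p of the list, with a difference of 4.62 (SE 1.22, limma, adjusted p = 0.122). Its receptor chains Il6ra and Il6st differed by 0.48 and 0.27 in the same samples, and by 0.21 and 0.12 with sections centred, neither called. For CEC against DNBS, 8 of 24 ligands lay above 0 with a median of -0.60, and 3 below 0 had an unadjusted p under 0.05. For Nissle against DNBS the count was 9 of 24 with a median of -0.19 and none at that p.

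Downstream of the receptors, 10 JAK, STAT and SOCS assays had medians between -0.24 and 0.10 over the 6 comparisons, with 0 called by limma. Socs2, a suppressor of cytokine and growth hormone signalling, had the smallest p among them for DNBS against healthy, at -0.95 (SE 0.24, adjusted p = 0.122), and for Nissle against healthy, at -0.88 (adjusted p = 0.395). The 6 assays of the MyD88 branch (Myd88, Irak1, Irak2, Irak3, Irak4 and Tollip) had medians between -0.26 and 0.12, and 13 assays of other receptors of the same fold (for colony-stimulating factors, interferons and the gp130 family) between -0.17 and 0.06, likewise with 0 called. Ifngr2, the signalling chain of the interferon gamma receptor, was the lowest in p of the latter for DNBS against healthy, at -0.65 (SE 0.30, adjusted p = 0.331).

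Receptors were also compared with each other across samples. Over 351 pairs of the 27 assays, the median correlation of deviations from the group means was 0.07 (n = 20 samples; the assays of a sample share its scaling and its sections, so r is a description). Of 18 pairs above 0.7, 3 were also above 0.7 with sections centred: Il12rb1 with Il12rb2, the chains of the IL-12 receptor (0.79 and 0.72), Il12rb1 with Il2rg (0.73 and 0.80), and Il10rb with Il17rb (0.81 and 0.77). CEC 1 was the lowest of its group in Il12rb1 (-4.65), Il12rb2 (-5.07) and Il2rg (-0.07). Nissle 1 was the lowest of its group in Il10rb (3.12) and Il17rb (-5.32), which also share section 8. The weight of single samples in these r values was not tested. Il10ra and Il10rb, the chains of the IL-10 receptor, had an r of -0.71 and -0.67. In the order of genes in the RefSeq table of assembly GRCm38.p6, Il1r1, Il1rl2 and Il1rl1 are direct neighbours with Il18rap 1 protein-coding gene further, and no protein-coding gene lies between Il12rb2 and Il23r, between Il6st and Il31ra, or between Ifnlr1 (Il28ra) and Il22ra1.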

How the data were processed

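Raw Ct values of 648 assays in 20 samples were deposited without normalization, per the file headers, with 40 for no amplification; RNA was isolated with a mirVana kit and run on an OpenArray NT cycler, per the labels' protocols. How baseline and threshold were set is not stated there. The header calls the table a truncated example, so it may not be whole. Of 12960 cells, 1273 were undetermined and 1 was empty, and these were treated as missing.

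From the Ct, relative levels were computed against the sample mean of the 544 assays measured throughout. All 569 assays with at least 3 values in each of the 4 groups were fitted in limma 3.58.1 (R 4.3.3; group means, trended eBayes, two-sided, Benjamini-Hochberg at 0.05 per comparison), and detection was compared by Fisher's exact test. The script was tested on simulated data. For each comparison the text names called receptors and the 3 of smallest p. The receptors and gene lists were chosen with earlier results of these data known. All 28 symbols matched the RefSeq table of GRCm38.p6, 2 under newer names.

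Samples of different groups share numbers in their titles. Between DNBS and healthy, the deviations of same-numbered samples had an r of 0.136 to 0.491 (3 pairs), and -0.032 to 0.253 with sections centred. A replicate block was therefore also fitted there and elsewhere. In Nissle against healthy r was -0.401 to -0.146 (3 pairs), and in CEC against healthy 0.114 to 0.130 (2 pairs). The comparisons of CEC, Nissle and DNBS with each other had pairs on both sides of 0. These values do not show that a number marks a shared block. The pairing is read from the data, as no label ties a number to a litter, batch or day.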

Additional observations from a re-analysis of the deposited data

Results flagged for a closer look

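In 5 of 110 groups of 5 values, 1 sample lay far from the other 4 by Dixon's criterion, which chance meets in about 1 of 20 groups. Nissle 1 was low in Il17rb, the IL-25 receptor chain (-5.32, next lowest -2.89), and in Il27ra, the IL-27 receptor (-3.12, next -1.75), and it also had the highest neutrophil mean of the series, 2.66. Nissle 3 was low in the Mm01302068 assay of Il13ra1 (2.80, next 3.71), which the other assay of that gene did not show. DNBS 3 was low in Il1rl1, the IL-33 receptor (-2.70, next -1.45). DNBS 5 was high in Il2rg, the common gamma chain (3.01, next 1.48), and stood at 1.67 once the sections of the table were centred.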

How the results depend on the processing

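The count of called receptors was recomputed under 34 other settings per level comparison and 22 for detection, and was 0 in each except 1. With limma's array weights, DNBS against healthy gave 1 called receptor, Il22ra1, at -0.73 (SE 0.19, adjusted p = 0.0153), when 90 of all 569 assays were called. Without normalization, Il10rb in Nissle against healthy turned to 0.029 (SE 0.32, adjusted p = 0.985). Of 612 recomputed values of the 18 named differences, the other 610 kept their direction and their side of the threshold. Leaving out each sample in turn gave 0 called receptors in every comparison; Il22ra1 in DNBS against healthy then ran from -0.76 to -0.58 (adjusted p 0.0894 to 0.371) and Il22ra2 from -1.90 to -1.05. With the replicate block, 0 receptors were called in every comparison, and the smallest adjusted p of a receptor for DNBS against healthy was 0.524; the block changed no call of a receptor. Without Nissle 3, 4 and 5, 0 were called as well. Centring the sections and leaving out the 3 samples of widest section shifts were added after seeing the data, and 0 were called under both. With 5 samples a group, and no replicate wells in the table, the error of a single Ct is unknown, and Il31ra and Il5ra could be compared only by their detection. In that test an assay standing alone could not pass the adjustment, so the count of 0 there says little.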
